A study of Arabidopsis thaliana with 4 samples.

Results

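MGL (AT1G64660) encodes methionine gamma-lyase and was followed here on its own, as 1 gene with 1 probe set. The arrays hold 22746 probe sets that are not controls, of which 13513 name a single gene each, 13355 genes in all. MGL was chosen by its locus, and selected on its measured change between the groups below, so its levels and changes are given as a description, with no test. Transcripts were measured on Affymetrix GeneChips in Arabidopsis thaliana leaf mesophyll protoplasts, which are photosynthetic leaf cells freed of their walls. The KIN10 group had been transfected with a plasmid expressing KIN10 (AT3G01090), a catalytic subunit of the kinase SnRK1 that responds to low energy, and the control group with control plasmid DNA. Both groups came from soil-grown plants, received 1 mg of DNA and were kept for 6 h in mannitol buffer under light. A light period of 13 h, a dark period of 11 h and a temperature of 23 °C are listed for every array. Each group had 2 arrays, 1 from each of 2 independent experiments. Per the design text, an experiment had its own operator, plants, growth chamber, DNA and array facility, and its KIN10 and control transfections shared 1 pool of protoplasts from 36 plants, so the experiment number pairs the arrays. KIN10 was expressed transiently from a plasmid, and the share of cells that took it up is not given in the sources used here. The KIN10 transcript is not analysed here, since none of the single-gene probe sets names it, and the group labels could not be checked on it.

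Methionine gamma-lyase is a pyridoxal phosphate enzyme that splits methionine into methanethiol, ammonia and 2-oxobutyrate. The 2-oxobutyrate can enter isoleucine synthesis, so the reaction links the breakdown of a sulfur amino acid to the making of a branched-chain one. The same methionine pool feeds S-adenosylmethionine, the methyl donor and the precursor of ethylene and polyamines, and the S-methylmethionine cycle. SnRK1 is known for turning on the breakdown of amino acids and other reserves when sugar is short.

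The MGL signal was 18509.1 and 26657.9 on the KIN10 arrays of experiments 1 and 2, against 114.2 and 834.7 on the control arrays of experiments 1 and 2. These are linear probe set signals as deposited, on arrays scaled to a common trimmed mean. Both KIN10 arrays were high, control array 1 was the lowest, control array 2 lay between, and the groups did not overlap: the lowest KIN10 signal was 22.2 times the highest control signal. The mean signal was 22584 ± 5762 with KIN10 and 474 ± 509 with control DNA (SD, n = 2 arrays each). Among the 13648 probe sets that passed a filter on low mean signal, 17.7% had both KIN10 arrays above both control arrays on the median-centred scale and 20.2% had both below. The gap between the lowest KIN10 and the highest control array of MGL, after each array was centred on its median, was 3.87 on the log2 scale, and its rank was 10 among these probe sets.

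**Figure D1:**
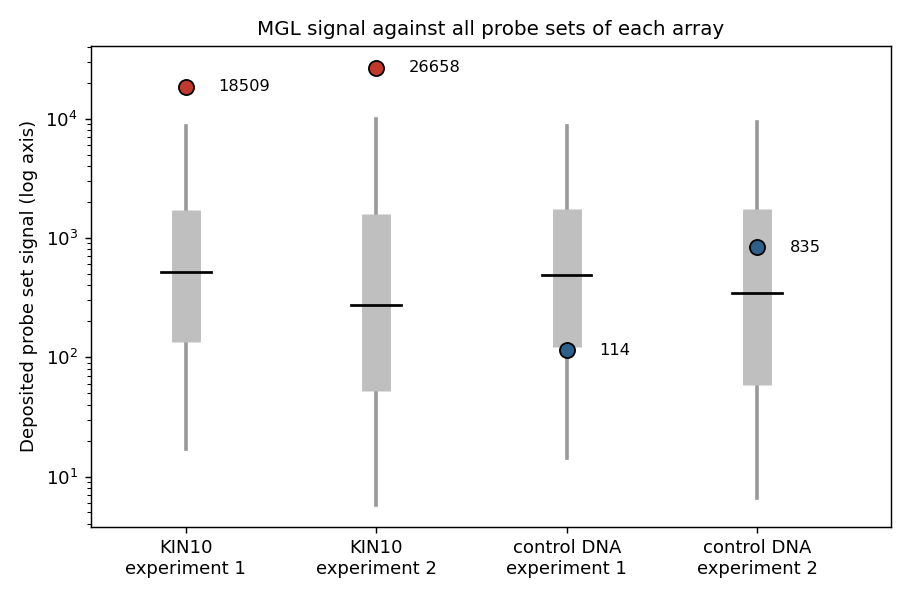
MGL signal as deposited (points, log axis) on each of the 4 arrays, with KIN10 in red and control DNA in blue. Grey lines span the 5th to 95th percentile of the 22746 probe sets of each array, grey boxes the middle quartiles and black lines the median; MGL lies above the grey line on both KIN10 arrays, at the lower edge of the box on control array 1 and above the median on control array 2.

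With KIN10, MGL was among the brightest probe sets of either array. It was ranked 397 of 22746 in experiment 1 and 258 in experiment 2, with 98.3% and 98.9% of probe sets below it. On the control arrays it was ranked 17228 in experiment 1 and 8561 in experiment 2, with 24.2% and 62.4% of probe sets below it. Set against the median of its own array, its signal was 35.5 and 96.8 times the median with KIN10, and 0.233 and 2.43 times the median with control DNA. Probe sets differ in how strongly they bind, so a rank places a signal on its array and is not an amount of transcript. The control signal of experiment 1 was under its array's 40th percentile (297), and that of experiment 2 was over the same percentile of its own array (153).

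The log2 change in MGL, as KIN10 minus control DNA on median-centred arrays, was 7.25 in experiment 1 and 5.32 in experiment 2, or 152-fold and 39.8-fold. On the signals as deposited the folds were 162 and 31.9. The mean log2 change was 6.28 ± 1.37 (SD, n = 2 experiments), or 77.9-fold. In experiment 1 its change was ranked 2 of all 22746 probe sets, and the largest of the 7471 tested probe sets with a single gene name. That change rests on a control signal under the 40th percentile of its array, and detection calls were not used. In experiment 2 the change of MGL was ranked 64 of all probe sets, and 14 of the 7471. By the mean of the experiments it was ranked 5 of all 22746 probe sets and 4 of the 13648 tested. Among the 7471 it was then ranked 2, after GAT1_2.1, a glutamine amidotransferase gene with changes of 7.19 and 11.53, and before AT4G25580 (3.78 and 7.77) and AT2G20670 (5.71 and 5.83). Of all 22746 probe sets, 1 had a larger change than MGL in both experiments, and it carries no single gene name.

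These levels can be set beside those of other probe sets, with bounds taken from MGL itself. Of the 5519 probe sets at or below MGL on control array 1, MGL was the only one (1) that reached its level or more on KIN10 array 1. Of the 14186 at or below it on control array 2, 8 did so on KIN10 array 2, MGL included.

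For MGL, the experiments differed mainly in the control arrays. The control signal of MGL was 7.31 times higher in experiment 2 than in experiment 1, whereas its KIN10 signal was 1.44 times higher. On the median-centred log2 scale, experiment 2 exceeded experiment 1 by 1.45 with KIN10 and by 3.38 with control DNA. Of the 13648 tested probe sets, 86.6% had a smaller such difference than MGL with KIN10 and 99.8% with control DNA, and MGL was ranked 24 by the control difference. The medians over all tested probe sets were 0.70 with KIN10 and 0.42 with control DNA. With 1 array left out the pairing was dropped, so these folds compare group means across experiments and are not paired changes. Leaving out control array 1 gave an MGL fold of 24.1, and leaving out control array 2 gave 251. Without KIN10 array 1 the fold was 129, and without KIN10 array 2 it was 47.1. Operator, plants, growth chamber, DNA and facility changed together between the experiments, so their parts in this difference cannot be told apart.

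**Figure D2:**
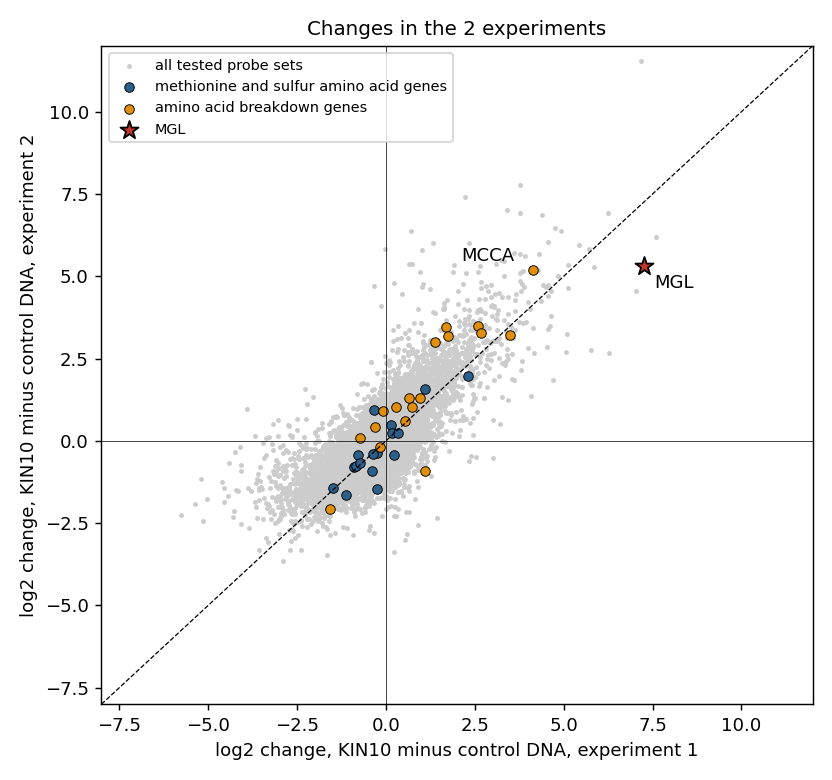
Log2 change with KIN10 in experiment 1 (x axis) and experiment 2 (y axis) for the 13648 tested probe sets (grey), 18 measured amino acid breakdown genes (orange), 17 tested methionine and sulfur amino acid genes (blue) and MGL (red star). The dashed line marks equal changes; MGL lies below it (7.25 and 5.32), MCCA above it (4.15 and 5.20).

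The filter on low signals used the mean over all 4 arrays, and MGL passed it with a mean centred log2 signal of 2.73 against a threshold of -1.02. Its mean over the control arrays alone was -0.41, above the same value. In bulk RNA a change in the cells that express a gene and a change of RNA per cell cannot be told apart. Of the markers of mesophyll and photosynthesis, 5 of 17 had a single-gene probe set, and their summed signal was 70353 and 119001 with KIN10 and 49523 and 73999 with control DNA. RCA, Rubisco activase, had signals of 25411.1 and 39109.5 with KIN10 and 17902.9 and 30260.5 with control DNA. LHCB4.1, a light-harvesting protein, had 30411.7 and 41795.5 with KIN10 and 24361.2 and 25389.9 with control DNA. Both RCA and LHCB4.1 were thus bright on every array. All 5 had a positive mean log2 change. PSAN, a photosystem I subunit, rose by 1.59 (limma adjusted p = 1.69e-05) and PRK, phosphoribulokinase, by 0.90 (limma adjusted p = 0.0174), and RCA, LHCB4.1 and SBPASE were not called. The groups overlapped in PSAN and PRK, with KIN10 array 1 below control array 2. PSAN had 6869.1 and 24284.9 with KIN10 and 2751.5 and 7869.4 with control DNA. PRK had 4058.0 and 7957.8 with KIN10 and 2003.5 and 5426.4 with control DNA. RCA and LHCB4.1 were called higher with the values as deposited and when centred on the kept probe sets (limma adjusted p from 0.0223 to 0.0333), and without the block PSAN (0.619) and PRK (0.845) were not called by limma. For other cell types there were 2 measured markers of 16. FMA, a guard cell factor, had 479.4 and 146.0 with KIN10 and 585.6 and 261.7 with control DNA. TRY of trichomes had 43.6 and 160.6 with KIN10 and 183.9 and 109.3 with control DNA. No marker of epidermis, phloem, bundle sheath or xylem has a value here. The part of these differences in the MGL change was not tested.

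Among genes around the substrate and products of MGL, HMT-1 and AT2G31810 were called higher, AT3G23940, AT5G15950, AT1G14810 and LCD lower, and the other 11 tested genes were not called. Over lists of 120 other genes for the synthesis, recycling and use of methionine, its aspartate-family and branched-chain neighbours, and sulfur assimilation, 22 had a single-gene probe set and 17 passed the filter. Of these 17, 2 rose, 4 fell and 11 were not called (limma with the experiments as blocks, Benjamini-Hochberg adjusted p under 0.05). Over all 13648 tested probe sets 14.7% were called higher and 15.5% lower, 30.2% in all, and 6 of 17 is close to that share. The median log2 change of the 17 was -0.37, against 0.03 over all tested probe sets. Without the block in limma none (0) of the 17 was called and 3 had an unadjusted p under 0.05. The adjusted p of the 6 then ran from 0.253 to 0.806.

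In the enzyme family of MGL, CBL, cystathionine beta-lyase, which makes homocysteine on the way to methionine, had signals of 1262.1 and 653.5 with KIN10 and 1397.9 and 1047.7 with control DNA. The groups overlapped on the deposited scale but were apart once the arrays were median-centred, and with a log2 change of -0.30 it was not called (limma adjusted p = 0.446), except as lower on the spike-in scale (-0.67, limma adjusted p = 0.0374). AT1G33320, entered in the same family, was too dim to be tested, with signals of 63.2 and 46.7 with KIN10 and 12.5 and 50.3 with control DNA.

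The S-methylmethionine cycle, which stores and moves methyl groups, had 2 tested genes, of which 1 was called higher and 1 was not called. HMT-1, a homocysteine methyltransferase that makes methionine from S-methylmethionine, had signals of 2768.6 and 1756.3 with KIN10 and 1205.1 and 736.1 with control DNA. It rose 2.53-fold (1.34 ± 0.28 as a log2 change with its SE, 2 arrays in each group, limma adjusted p = 1.52e-05), by 1.11 in experiment 1 and 1.57 in experiment 2. MMT, the methyltransferase that makes S-methylmethionine, had signals of 3359.3 and 1981.4 with KIN10 and 4161.8 and 4648.6 with control DNA, and a log2 change of -0.66 (limma adjusted p = 0.0928). MMT was called lower with the values as deposited (limma adjusted p = 0.0259), after quantile normalization (0.0333), when centred on the kept probe sets (0.0404) and on the spike-in scale (0.0015).

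Among users and recyclers of S-adenosylmethionine, AT5G15950 of the ethylene and polyamine list fell, with signals of 119.7 and 114.4 with KIN10 and 246.4 and 442.3 with control DNA. Its log2 change was -1.38 ± 0.48 (SE, limma adjusted p = 0.0171). That call was lost with the values as deposited (limma adjusted p = 0.0618) when centred on the kept probe sets (0.0516) and without the filter (0.104). With quantile normalization or the offset of 16 it did not pass the filter. SAMDC, S-adenosylmethionine decarboxylase of polyamine synthesis, was bright on every array, with 44651.8 and 42083.6 with KIN10 and 37809.5 and 37328.9 with control DNA, and was not called (log2 change 0.32, limma adjusted p = 0.546). ARD4 of the methionine salvage list had changes of opposite sign in the experiments (-0.33 in the first, 0.94 in the second) and was not called (limma adjusted p = 0.506). None of the 8 genes of the S-adenosylmethionine cycle list has a value here.

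On the branched-chain side, where 2-oxobutyrate is used, 4 of 15 listed genes were tested, and 1 rose, 1 fell and 2 were not called. AT2G31810 had signals of 12158.2 and 17131.3 with KIN10 and 2291.6 and 5420.8 with control DNA. It rose 4.43-fold (log2 change 2.15 with an SE of 0.33, limma adjusted p = 1.75e-09), by 2.32 in experiment 1 and 1.98 in experiment 2. AT3G23940 had signals of 1621.9 and 1182.7 with KIN10 and 4264.6 and 3991.4 with control DNA. It fell by 1.46 on the log2 scale (SE 0.29, limma adjusted p = 9.37e-06). AT3G58610 had a change of -0.80 and was not called (limma adjusted p = 0.0646), but was called lower in limma on every other scaling tried and with a robust prior (adjusted p from 5.09e-05 to 0.0437). ATBCAT-5, a branched-chain aminotransferase, had a change of -0.37 and was not called (limma adjusted p = 0.352), except on the spike-in scale (-0.74, limma adjusted p = 0.0116). In the list from aspartate to threonine, which shares its first steps with methionine, AT1G14810 fell by 0.85 on the log2 scale (limma adjusted p = 0.0321, or 0.806 without the block). Its signals were 4212.1 and 4217.5 with KIN10 and 7347.0 and 9148.9 with control DNA, and the groups overlapped once the arrays were median-centred. AT1G72810 had a change of -0.85 and was not called (limma adjusted p = 0.167).

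Of sulfate assimilation and cysteine genes, 4 of 28 listed were tested, and LCD, an L-cysteine desulfhydrase, fell. Its signals were 1456.8 and 1111.7 with KIN10 and 2286.2 and 2204.4 with control DNA, a log2 change of -0.70 ± 0.28 (SE, limma adjusted p = 0.0426). It was not called without the filter (limma adjusted p = 0.0607) or with one at the 20th percentile (0.0649). SIR, sulfite reductase, had a change of -0.60 and was not called (limma adjusted p = 0.174), but was called lower with the values as deposited, after quantile normalization, when centred on the kept probe sets and on the spike-in scale (limma adjusted p from 0.000309 to 0.0192). The ATP sulfurylase genes APS3 (-0.10) and APS4 (0.21) were not called (limma adjusted p = 0.859 and 0.669). BCAT4, which starts the side-chain extension of methionine for glucosinolates, had a change of 0.28 and was not called (limma adjusted p = 0.694).

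**Figure D3:**
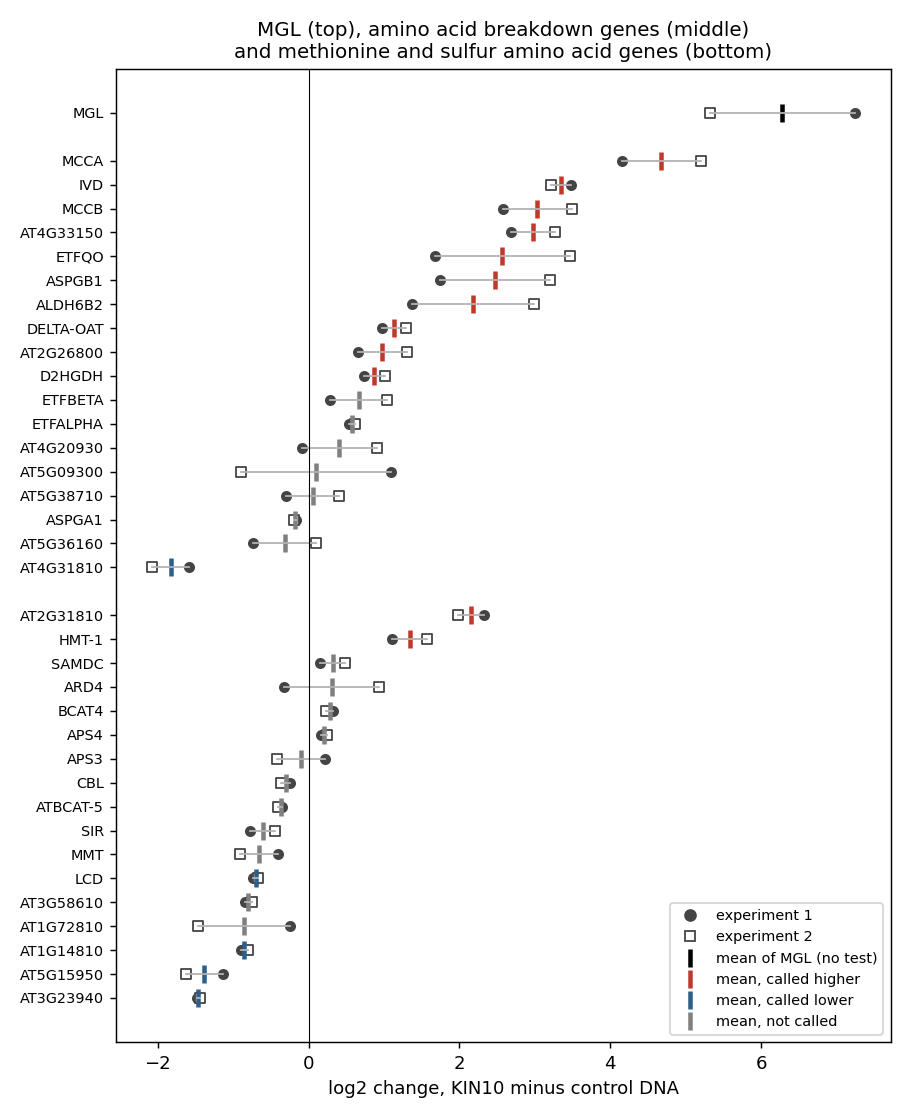
Log2 change with KIN10 for MGL (top), 18 amino acid breakdown genes (middle) and 17 methionine and sulfur amino acid genes (bottom); circles are experiment 1, open squares experiment 2 and vertical ticks the mean. Ticks are red for a limma call higher, blue for a call lower and grey for no call. The tick of MGL is black, since no test is given for it. The mean of MGL (6.28) lies to the right of every other gene shown, MCCA being next at 4.68.

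MGL was also set beside genes for the breakdown of other amino acids. Of 43 listed, 18 were measured, and 10 rose, 1 fell and 7 were not called (limma, adjusted p under 0.05), against 14.7% higher and 15.5% lower over all probe sets. For 8 of the 18 the rise was known when the list was written, and they are no independent evidence. Among the other 10, 2 rose, 1 fell and 7 were not called, and 20% called higher is near the background. ASPGB1, an asparaginase that frees ammonia from asparagine, had signals of 11115.5 and 25493.9 with KIN10 and 3124.1 and 3469.5 with control DNA, and rose 5.53-fold (log2 change 2.47 with an SE of 0.33, limma adjusted p = 3.97e-12). DELTA-OAT, the ornithine aminotransferase, rose 2.19-fold (limma adjusted p = 0.00373), with signals of 10792.0 and 15294.9 with KIN10 and 5187.9 and 7803.7 with control DNA. Its groups were apart on the deposited scale but overlapped once the arrays were median-centred. AT4G31810 fell by 1.83 on the log2 scale (SE 0.27, limma adjusted p = 6.31e-10), with signals of 838.6 and 427.9 with KIN10 and 2359.8 and 2263.1 with control DNA. ETFALPHA (0.57) and ETFBETA (0.67), the subunits of the flavoprotein that takes electrons from the dehydrogenases of breakdown, were not called (limma adjusted p = 0.162 and 0.102). ETFBETA was called higher with the values as deposited (limma adjusted p = 0.0315), after quantile normalization (0.0359) and when centred on the kept probe sets (0.027), and ETFALPHA with the last of these (0.045). AT5G36160 (-0.31), AT4G20930 (0.41), AT5G09300 (0.10), AT5G38710 (0.06) and the asparaginase gene ASPGA1 (-0.18) were not called either. Of these 5, AT5G36160 was called lower on the spike-in scale (-0.68, limma adjusted p = 0.0114). Without the block only MCCA was called in limma (adjusted p = 0.0178), and the adjusted p of the 11 ran up to 0.754.

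MGL differed from most of these genes, and from most tested probe sets, in which experiment had the higher change. The signed log2 change was higher in experiment 2 for 14 of the 18 breakdown genes and higher in experiment 1 for 4, whereas that of MGL was higher in experiment 1. Over all 13648 tested probe sets, 9461 had the higher change in experiment 2 and 4187 in experiment 1. A higher change in experiment 2 was thus not particular to the breakdown genes. Between the KIN10 arrays, MGL was 1.45 higher in experiment 2 on the centred log2 scale, within the range of -1.08 to 3.09 of the 18 genes. Between the control arrays it was 3.38 higher, beyond their range of -0.81 to 1.95. The leading breakdown gene, MCCA, a subunit of the carboxylase of leucine breakdown, had signals of 14145.8 and 28440.8 with KIN10 and 747.9 and 964.6 with control DNA. These are descriptions of 4 arrays, and the difference between the experiments was not tested.

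The 5 named genes whose pattern over the 4 arrays lay nearest to MGL were AT4G27450, AT2G20670, AT1G23120, AT2G30600 and AT1G62510, which carry a locus name only. Likeness was the distance between centred log2 signals after each probe set's own mean was taken off, over 7470 other tested probe sets with a single gene name, whose median distance was 6.73. The distances of the 5 ran from 1.73 for AT4G27450 to 2.22 for AT1G62510, and Pearson r over the 4 arrays from 0.964 to 0.989. As many as 322 of the 7470 had an r above 0.95, so r over 4 arrays of 2 groups says little. AT4G27450 had signals of 14844.2 and 24674.5 with KIN10 and 397.5 and 763.8 with control DNA. AT1G62510 came closest to the control difference of MGL, with 13156.9 and 31079.5 with KIN10 and 364.6 and 4083.3 with control DNA, and a larger change in experiment 1 (5.08) than in experiment 2 (3.25). In AT2G20670 the control signals were 498.2 and 634.3, and the changes were about the same in both experiments.

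**Figure D4:**
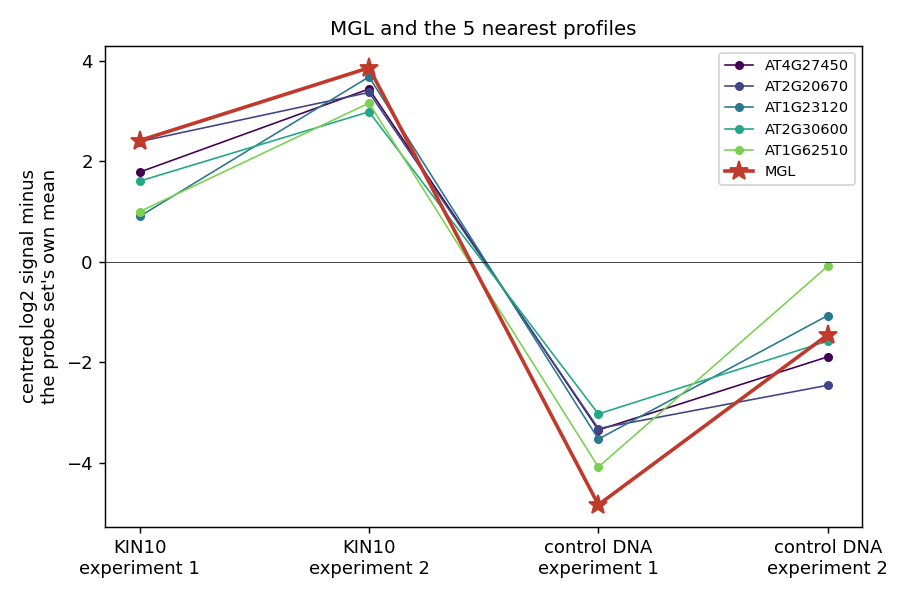
Centred log2 signal of MGL (red stars) and the 5 nearest named genes on the 4 arrays, each with its own mean taken off; lines join the values of 1 gene. All 6 are high on both KIN10 arrays, and MGL has the lowest value on control array 1.

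MGL lies on chromosome 1 between AT1G64650 and BDG1 in the annotation of assembly TAIR10.1. AT1G64650 had signals of 1753.5 and 964.6 with KIN10 and 2805.0 and 2432.0 with control DNA. It fell by 0.89 on the log2 scale (SE 0.28, limma adjusted p = 0.0083, or 0.608 without the block). BDG1 has no single-name probe set here. On that side the nearest gene with one was AT1G64680, which had 2442.0 and 2831.1 with KIN10 and 1709.8 and 2273.4 with control DNA, and was not called (log2 change 0.53, limma adjusted p = 0.17). Neither measured neighbour was called higher.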

How the data were processed

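The authors deposited linear Affymetrix probe set intensity values, and the submitters' processing notes name GCOS 1.0. Neither its settings nor detection calls were used or known here. After 2% of values were trimmed at each end, every array's mean was 1500.13 to 1500.15. Array medians ran from 276 to 522, and the number of arrays limits the precision.

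Log2 signals (1 value at or below 0 was set to the smallest positive value of its array) were centred on the median of 22746 non-control probe sets. Those below the 40th percentile of mean log2 signal (9098) were removed, and 13648 were fitted with limma 3.58.1 in R 4.3.3 (intensity trend, the experiments as blocks, 1 degree of freedom left). The prior had 1311 degrees of freedom, so standard errors follow a common trend (median 0.303) and hardly reflect the single gene. Arrays of 1 experiment deviated together (Pearson r of 0.705 across probe sets), and the pairing is stated by the design text.

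Of the single names, 13436 matched a RefSeq table (TAIR10.1) by Entrez number. By the rule for names, the text could name MGL, any measured list member, the 5 nearest profiles, 2 genes next to MGL on either side by change (only 1 lay above it) and its genome neighbours. The members and lists were chosen with earlier results of these data known. Alternatives covered scaling, filter, offset, prior, block and left-out arrays. Sequences were not analysed here.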

Additional observations from a re-analysis of the deposited data

How the results depend on the processing

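The mean log2 change of MGL was 6.28 and lay between 5.91 (spike-in scale) and 6.38 (quantile normalization) under all scalings, filters and the offset of 16 tried, and was 6.28 with no replicate block. With 1 array left out and no replicate block it ran from 4.59 to 7.97. On the control array of experiment 2, 62.4% of all probe sets lay below MGL, and 67.4% of those with a single name.

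With no replicate block, limma called 173 probe sets in place of 4117, 0 of the methionine and sulfur genes in place of 6, and 1 of the breakdown genes in place of 11 (8 with an unadjusted p under 0.05). The cause of this drop was not tested. Separately, with 1311 prior degrees of freedom the calls with the block rest on a pooled spread. With 1 array left out, which also drops the block, the count over all probe sets was 95 (without control array 1), 105 (control array 2), 874 (KIN10 array 1) or 476 (KIN10 array 2), and the list counts ran from 0 to 1 and from 0 to 8; an arm of 1 array was then taken to vary like the other. Without KIN10 array 1 the 8 breakdown calls were the most. On the spike-in scale 11 methionine and sulfur genes were called (2 higher, 9 lower). That scale moved the median change of tested probe sets to -0.34 from 0.03, and 23.5% of all calls were higher, against 48.7% after median centring. Every other setting kept these counts within 1.5 times. Signals of MGL on control array 1 and of AT1G33320 lie low on their arrays, and detection calls were not used, so how well they stand above background is not known here.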
